A study of Homo sapiens with 12 samples.

Results

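Acetylation of histone H3 at lysine 27 (H3K27ac), a mark of active promoters and enhancers, was examined at 6 genes that encode surface receptors or a membrane scaffold. EGFR, MET, AXL, EPHA2 and IGF1R are receptor tyrosine kinases, and CAV1 encodes caveolin-1, the main coat protein of caveolae. The genes were chosen by name, with earlier results of these data known. A peak belonged to a gene if it lay within 5 kb of the gene's start site or over the gene body. Of 120387 regions made by merging the peaks of all libraries, 45 lay at these 6 genes: 24 at IGF1R, 12 at MET, 5 at EGFR, 2 at AXL and 1 each at EPHA2 and CAV1.

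The cells were MDA-MB-231 (written MDA-MB231 in the labels), a human breast cancer cell line, and 1 line was used for every group. All cells received lentivirus: the Control group carried what the sample labels call EV-control and the series' design text calls a control shRNA, the CDK19KD group an shRNA against CDK19, and the CDK8KD group an shRNA against CDK8. CDK8 and CDK19 are closely related kinases of the Mediator complex, and the comparisons ask where histone marks differ when one or the other is depleted. Chromatin was taken 96 h after infection and was not fixed, and each group had 3 libraries. Nothing states whether the 3 libraries came from separate cultures, so p-values measure the spread between these libraries, which may be technical. The Input libraries were not analysed here, and no level of CDK8 or CDK19 was used, so the knockdowns themselves were not checked.

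Receptor tyrosine kinases bind a ligand outside the cell, pair up and phosphorylate each other's tails, which recruits adaptors that start the RAS, PI3K and related pathways. EGFR, MET, AXL and EPHA2 are well known for high expression in invasive, mesenchymal-like breast cancer lines, and IGF1R for growth and survival signals from insulin-like growth factors. Caveolin-1 shapes flask-like pits of the plasma membrane and binds signalling proteins there. H3K27ac is laid down at active start sites and enhancers, and a broad stretch of it can cover a whole gene.

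Each library came as its own list of broad peaks, with 62669 to 87530 peaks that covered 8.62% to 10.5% of the genome grid used here. The lists hold no read counts, so the depth is unknown and no counting interval was possible. CDK19KD lists covered 8.62% to 8.94% of the grid, CDK8KD lists 9.62% to 10.5%, and Control lists 8.66%, 10.3% and 10.4% in replicates 1, 2 and 3. Any difference in covered length at a gene stands beside these totals, and how far they account for it was not tested. Of the marker genes, VIM and CD44, typical of mesenchymal-like lines, had a peak at the start in all 9 libraries. ESR1, the oestrogen receptor gene, and ALB, a liver gene, had none in any. The luminal or epithelial genes KRT8, KRT18 and EPCAM had one in all 9. GATA3 and CDH1 had a peak within 5 kb of the start in 6 libraries, but over the start itself in only 2 and 1. These markers do not give the line a single subtype here, and it is called by its name.

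Promoter sequences show how unlike the 6 start regions are. The 250 bases before the start site, from RefSeq on GRCh38.p14, were found for all 6 genes, and 4 are printed here 5′ to 3′ on the gene's own strand, all of them the plus strand, because they span the range. RefSeq lists 3 starts for CAV1 and 2 each for EGFR and AXL, and the first listed was used. Whether it is the hg19 start used for the peaks was not checked. Capitals mark the SP1 box, GGGCGG on either strand.
IGF1R: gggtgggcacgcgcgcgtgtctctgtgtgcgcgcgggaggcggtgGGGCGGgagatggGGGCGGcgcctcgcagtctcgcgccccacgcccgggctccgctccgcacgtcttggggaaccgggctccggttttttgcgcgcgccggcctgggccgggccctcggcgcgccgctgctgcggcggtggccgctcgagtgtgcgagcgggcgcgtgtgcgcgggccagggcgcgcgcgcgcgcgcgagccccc
EGFR: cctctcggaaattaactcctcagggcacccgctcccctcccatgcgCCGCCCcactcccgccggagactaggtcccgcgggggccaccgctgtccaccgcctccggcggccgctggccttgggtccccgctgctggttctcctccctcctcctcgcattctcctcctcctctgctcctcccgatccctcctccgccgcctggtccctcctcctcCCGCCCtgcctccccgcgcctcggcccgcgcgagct
CAV1: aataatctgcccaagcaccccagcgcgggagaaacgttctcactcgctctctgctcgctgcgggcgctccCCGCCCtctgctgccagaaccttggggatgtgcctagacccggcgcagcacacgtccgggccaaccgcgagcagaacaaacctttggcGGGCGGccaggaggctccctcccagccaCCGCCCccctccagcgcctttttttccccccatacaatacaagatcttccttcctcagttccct
AXL: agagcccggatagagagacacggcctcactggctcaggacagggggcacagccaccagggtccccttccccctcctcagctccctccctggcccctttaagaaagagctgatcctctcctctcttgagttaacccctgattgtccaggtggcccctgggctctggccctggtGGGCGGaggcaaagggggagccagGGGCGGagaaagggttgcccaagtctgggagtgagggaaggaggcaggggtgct

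IGF1R had 48 CpG dinucleotides in its 250 bases, more than 99.7% of the 35116 RefSeq promoters, whose median was 11. EGFR had 25, MET 24, CAV1 18 and EPHA2 15, all above that median, and AXL had 4, below it. The SP1 box occurred in all 6 promoters, 3 times in CAV1, once in EPHA2 and 2 times in each of the others, while 42.6% of all promoters held it at least once. The AP-1 motif, TGANTCA, was in none of the 6 promoters and in 6.57% of all. The TATA box, spelled TATAAA, was likewise in none of them, while 10.7% of all promoters held it. The same was true of the CCAAT box, in 32.0% of all promoters, and of the E-box, spelled CACGTG here, in 6.34% of all. The TEAD motif, GGAATG, occurred in EPHA2 alone among the 6 and in 11.9% of all promoters. All motifs were searched on both strands of the window, and a match is a description of letters, not a bound site. Whatever their CpG content, all 6 starts lay inside a peak in all 9 libraries. Peaks of all 9 libraries touched 17.6% of the 303554 windows of 10 kb in the genome grid. Those windows include stretches far from any gene, and a touch is a looser measure, so that share does not set the 6 apart from other starts. The starts of VIM, CD44 and GAPDH also lay inside a peak in all 9 libraries, and that of ACTB in 7.

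**Figure D1:**
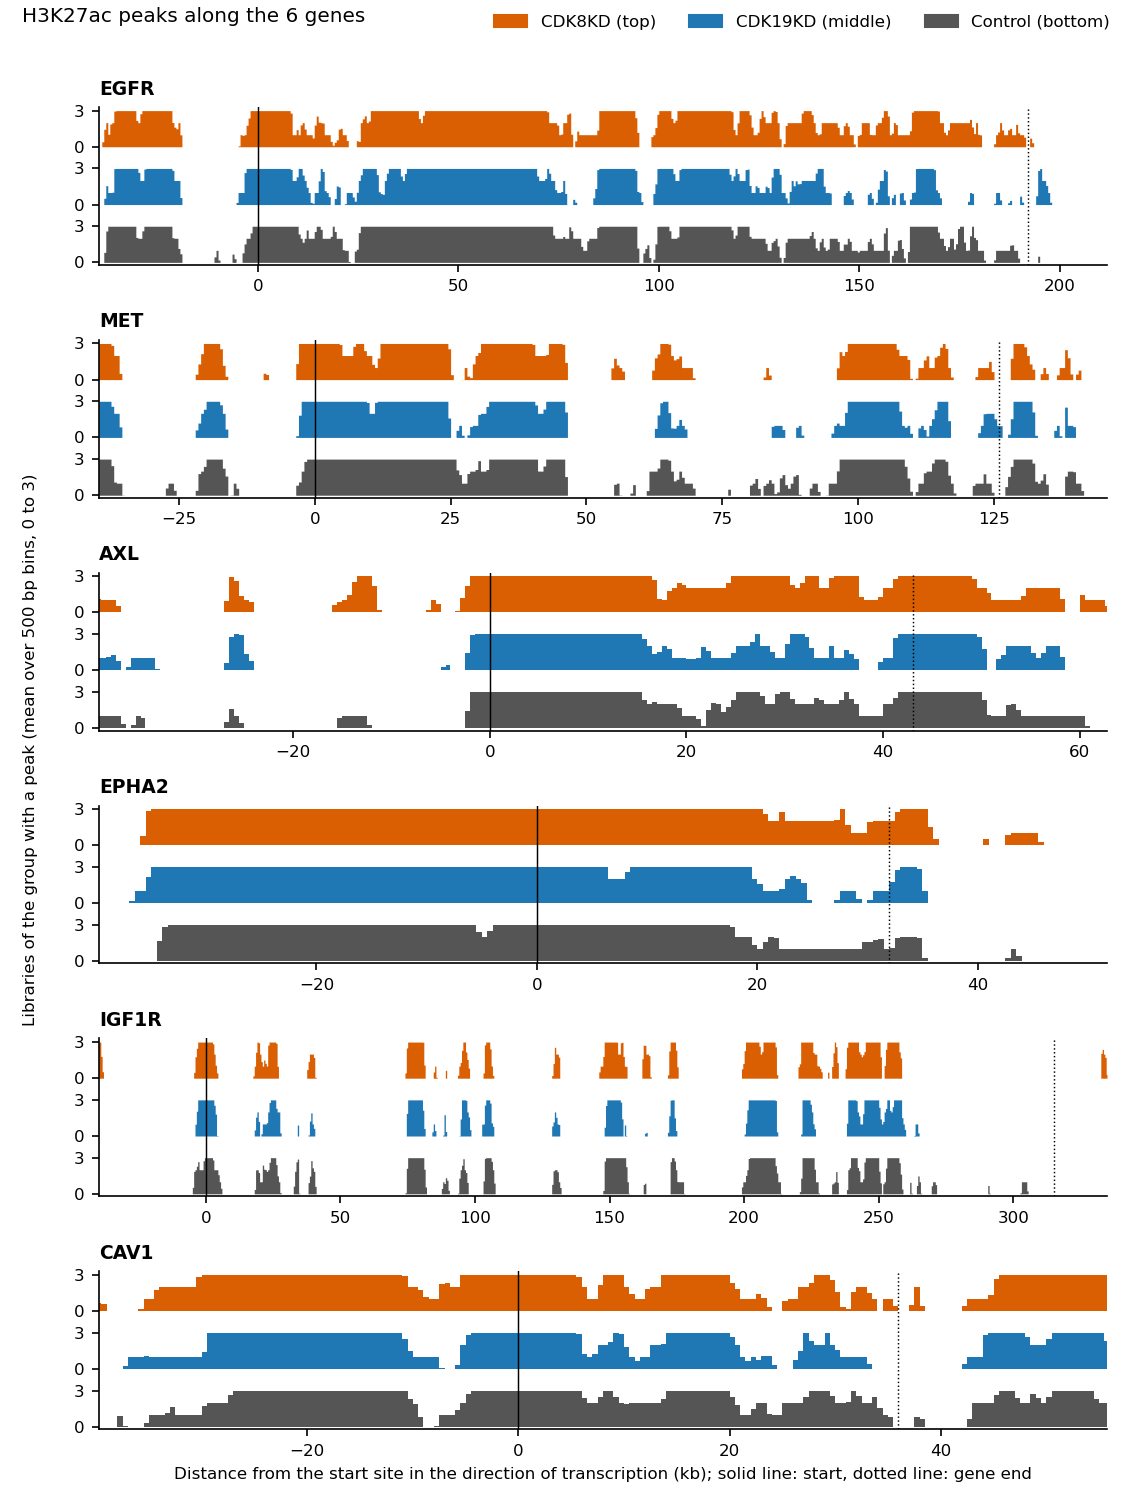
H3K27ac peaks along the 6 genes, as the number of libraries of each group with a peak (0 to 3, mean over bins of 500 bp) against the distance from the start site in kb. The layout recurred in the 3 groups: domains over most of EGFR, AXL, EPHA2 and CAV1, a start domain and a distal block in MET, and short separate peaks in IGF1R, where no library had a peak over 62.5% of the gene.

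The receptors differed in where their strongest acetylation lay. Strength was ranked by the −log10 p that the authors' peak caller gave each peak, as the percentile of the peak within its own list, where 100 is the top; fold enrichment is likewise the caller's own value. In EGFR and IGF1R the strongest peak lay inside the gene, far from the start, in all 9 libraries. In CAV1 it was the peak over the start in all 9, and in MET, AXL and EPHA2 in most. The strongest was taken over all peaks on the body, start peak included, so it could not rank below the start peak. EGFR and IGF1R are the longest of the 6 and averaged 16.8 and 18.2 body peaks per library. MET averaged 9.78, CAV1 4.56, AXL 4.44 and EPHA2 2.22. More peaks give more candidates away from the start, and how far that accounts for the difference was not tested.

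EGFR, the receptor of epidermal growth factor and its relatives, starts near kb 55087 of chromosome 7 (hg19, plus strand) and spans 192 kb. Its start peak ranked in percentile 76.9 to 85.8 of the 9 lists, with a fold enrichment of 3.58 to 5.45. The segment of it that all 9 libraries covered ran over 10164 bp (chr7:55085276-55095439). The strongest peak of the gene lay about 100 kb further on: in every library it began 98.1 to 105 kb and ended 118 to 127 kb after the start, in percentile 97.7 to 99.5 and with a fold of 5.17 to 8.23. Its shared segment was 12710 bp wide (chr7:55192050-55204759). The longest segment that all 9 libraries covered lay between them, from 41.2 to 69.7 kb after the start (28495 bp, chr7:55128191-55156685, median percentile 93.7). Against the shared start segment, with a median percentile of 82.9, 7 of the 11 shared segments further downstream ranked higher by their medians and 4 lower, over a range of 42.2 to 98.9. Of the body of EGFR, 40.8% was covered by all 9 libraries, against 2.33% covered by none.

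MET, the receptor of hepatocyte growth factor, starts near kb 116312 of chromosome 7 (plus strand) and spans 126 kb. Its start domain was strong, in percentile 90.9 to 99.4, with a fold of 5.09 to 7.81. In 6 libraries a single peak ran from the start to 24.6 to 30.4 kb inside the gene. In CDK19KD replicate 2 and in CDK8KD replicates 1 and 3 this domain was split, and the separate downstream part, starting 11.0 to 11.9 kb after the start, was then the strongest peak of the gene. The segment that all 9 libraries covered there ran from 11.9 to 24.6 kb (chr7:116323900-116336567), in percentile 95.8 to 99.9. A second strong segment lay 97.9 to 107 kb after the start (chr7:116409879-116419258, percentile 92.1 to 99.3), and weaker ones between.

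IGF1R, the receptor of insulin-like growth factors, starts near kb 99193 of chromosome 15 (plus strand) and is the longest of the 6 at 315 kb. Its start peak, 6.05 to 9.56 kb wide, had the lowest mean width of the 6 genes. Within the lists it ranked in percentile 79.9 to 92.0 by width and 74.4 to 83.6 by −log10 p. In every library its strongest peak lay 74.3 to 81.8 kb after the start, in percentile 89.6 to 99.7 with a fold of 4.65 to 8.41, and the shared segment was 5857 bp wide (chr15:99267801-99273657). Further shared segments lay 149 to 153 kb (chr15:99341735-99345993) and 202 to 206 kb (chr15:99394535-99398826) after the start, among others. Only 13.9% of the body was covered by all 9 libraries, the lowest share of the 6 genes.

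AXL, the receptor of GAS6, starts near kb 41725 of chromosome 19 (plus strand) and spans 43 kb. The peak over its start ran from 1.98 to 3.05 kb before the start to 15.6 to 21.4 kb after it in 8 libraries, and to 58.5 kb in CDK8KD replicate 3, where 1 peak covered the whole gene. It ranked in percentile 87.3 to 99.0. A second segment ran across the end of the gene, from 41.3 to 49.4 kb (chr19:41766254-41774369), with most of its length past the end. It ranked in percentile 83.8 to 97.5, and its peak was the strongest that overlapped the gene in CDK19KD replicates 2 and 3. Whether this segment belongs to AXL or to a neighbouring gene was not tested. AXL thus had a strong domain over its start. The promoter sequence taken for it, from the first of its 2 RefSeq starts, had the fewest CpG of the 6.

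EPHA2, an ephrin receptor, starts near kb 16483 of chromosome 1, lies on the minus strand and spans 32 kb. Its start lay in one of the widest peaks of every list, 39.3 to 71.0 kb, in percentile 99.6 or higher by width. In 8 libraries this peak reached 34.3 to 36.6 kb upstream of the gene. In Control replicate 3 it reached 4.23 kb upstream and 35.1 kb downstream instead, past the gene's end, and the upstream stretch was covered separately. The upstream stretch that all 9 shared was 28635 bp wide (chr1:16488288-16516922), longer than the shared segment at the start itself (10724 bp, chr1:16476505-16487228).

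CAV1 starts near kb 116165 of chromosome 7 (plus strand), 147 kb before MET, and spans 36 kb. The 10 kb around its start were covered by 98.7% to 100%, in percentile 88.5 to 99.7 with a fold of 4.16 to 8.74, and the shared segment at the start was 10781 bp wide (chr7:116160132-116170912). CAV2, which encodes the caveolin that pairs with caveolin-1, starts 25 kb before CAV1, and the stretch between both starts was covered by 78.1% to 100% (median 86.3% of 9 libraries). In CDK8KD replicate 1 a single peak reached 35.6 kb upstream of CAV1 and so joined both starts. The 111 kb from the end of CAV1 to the start of MET were covered by 26.0% to 47.9% (median 39.3%).

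**Figure D2:**
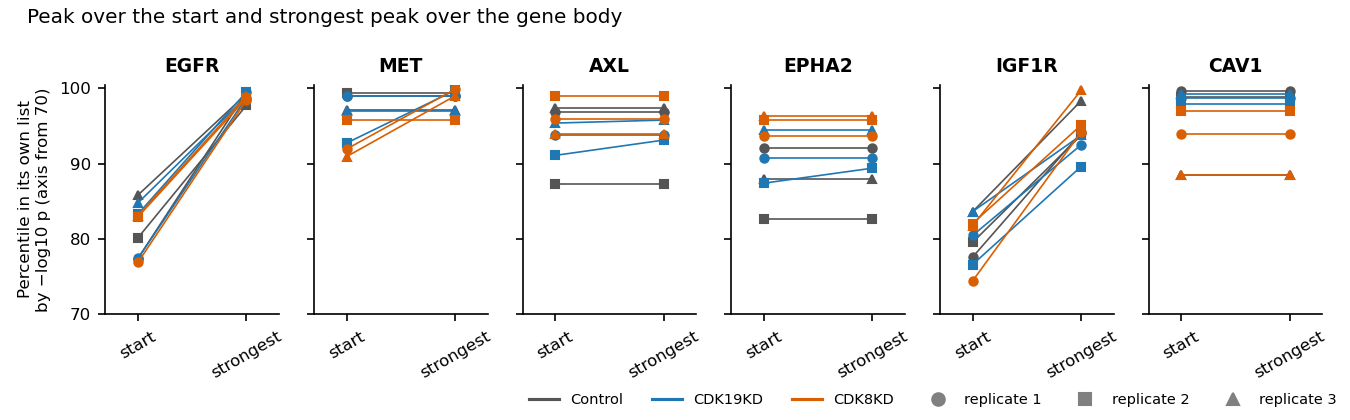
Percentile by −log10 p, within the list of the same library, of the peak over the start and of the strongest peak over the gene body (axis from 70; lines join the values of 1 library, colour gives the group and the marker the replicate). All 9 lines rise in EGFR, from 76.9 to 85.8 up to 97.7 to 99.5, and in IGF1R, while those of CAV1 are flat because the start peak was the strongest. No line can fall, because the start peak is among the peaks compared.

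The first question was whether the acetylated length at these genes differed between groups. Across the 6 genes, no test of the 3 groups passed 0.05 when libraries were permuted without regard to replicate number. Covered share around the start, covered share of the body and width of the start peak were each tested in each gene by an exact two-sided permutation of the 280 splits of 9 libraries into 3 groups of 3 (smallest possible p 0.00357), 18 tests in all with unadjusted p. The lowest p was 0.0857, for the width of the MET start peak, and the next was 0.0893, for the body of IGF1R (exact permutation). With labels permuted only within replicate numbers, the body of AXL gave 0.0278, the smallest possible. The next were 0.0556 for the body of EGFR and for the width of the AXL start peak (blocked exact permutation, unadjusted). Pairs of groups were compared over 10 splits, which cannot give a p below 0.1, and no pair could thus reach 0.05. Of the 18 pairs per measure, groups did not overlap in 1 for the start share, 2 for the body share and 4 for the start peak width. Taking the 3 pairs of groups together in either direction, groups did not overlap in 17.3% of 10 kb windows, in 20.5% of 100 kb tiles and, for width, in 19.7% of segments that all 9 libraries covered, so the counts at the 6 genes lay near or under these shares.

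**Figure D3:**
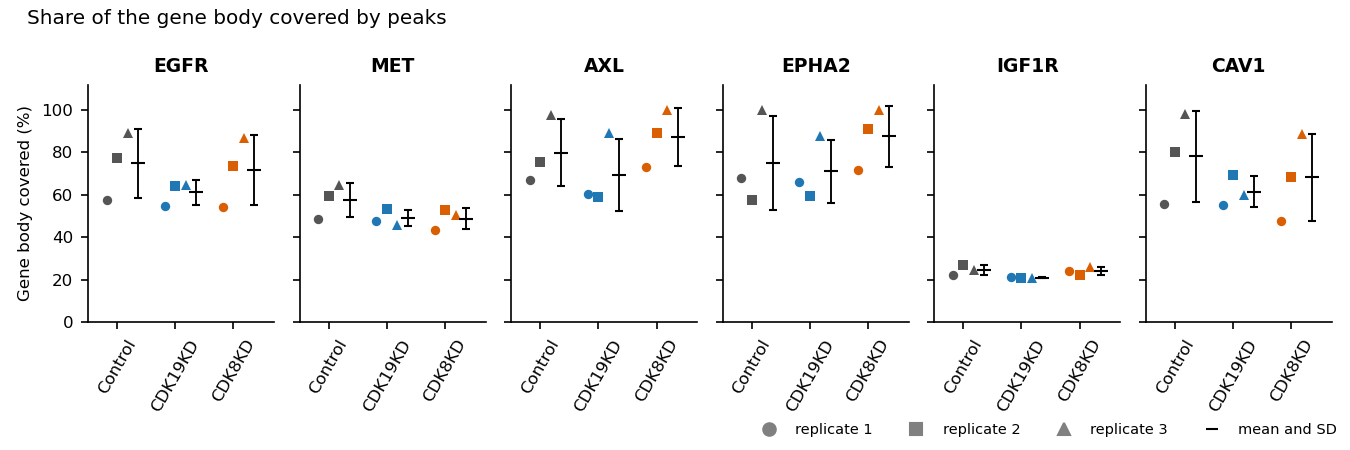
Share of the gene body covered by peaks, in percent, for the 3 libraries of each group (marker by replicate, bar at the mean with SD). Replicate 1 was the lowest Control in EGFR, MET, AXL, IGF1R and CAV1, and CDK19KD lay between 20.8% and 21.1% in IGF1R, below every library of the other groups.

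IGF1R showed the one body share that set CDK19KD apart from both other groups. Peaks covered 22.4%, 26.9% and 24.7% of its body in Control replicates 1, 2 and 3, 21.1%, 21.1% and 20.8% in CDK19KD, and 24.2%, 22.4% and 26.3% in CDK8KD. Every CDK19KD library lay below every other library, and Control and CDK8KD overlapped. Control averaged 24.6% ± 2.22, CDK19KD 21.0% ± 0.176 and CDK8KD 24.3% ± 1.95 (SD, n = 3 each; 57.5% of the variance between groups, exact permutation p = 0.0893). CDK19KD was 3.61 percentage points below Control and 3.26 below CDK8KD (exact permutation p = 0.1 for each, the smallest possible). Over tiles of the same length, 315 kb, every CDK19KD library lay below every Control library in 9.96% of tiles and below every CDK8KD library in 23%, and below every library of both groups in 5.47%. Leaving out Control replicate 1 raised the between-group share of variance to 75.1% (exact permutation p = 0.0464), and with peaks of −log10 q of at least 5 the difference to Control turned to 1.10 points higher. Scaled by the total covered length of each list, CDK19KD was 1.25 points below Control and 0.475 below CDK8KD, and without CDK8KD replicate 3 the unscaled difference from CDK8KD was −2.27 points.

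Within IGF1R the window with the largest difference between CDK19KD and Control lay 147 to 157 kb after the start (chr15:99340001-99350000), over the shared segment there. Covered share was 80.5%, 84.9% and 90.8% in Control, 61.4%, 67.1% and 63.7% in CDK19KD, and 73.8%, 74.7% and 84.0% in CDK8KD. The CDK19KD libraries lay below all others. The difference to Control was −21.4 percentage points (SE 4.0), with an adjusted p of 0.156 in limma over all windows, so it was not called. Between CDK19KD and CDK8KD the window 227 to 237 kb after the start (chr15:99420001-99430000) differed more, with 0% in every CDK19KD library, 15.1%, 16.3% and 38.0% in CDK8KD, and 5.41%, 17.9% and 9.55% in Control (−23.1 points to CDK8KD, SE 6.43, limma adjusted p = 0.150), and was not called either.

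Weak peaks of IGF1R were also the only merged regions that a whole group held and another lacked. A region 233 to 235 kb after the start (chr15:99425514-99427978) was held by all 3 Control and all 3 CDK8KD libraries and by no CDK19KD library, with −log10 p of 2.34 to 3.02. A region 32.7 to 34.5 kb after the start (chr15:99225682-99227515) was held by all 3 Control libraries, by CDK19KD replicate 2 and by no CDK8KD library, with −log10 p of 2.18 to 2.79. These peaks ranked in percentile 6.08 to 33.6 of their lists. Of the 45 regions at the 6 genes they made 1 for Control over CDK19KD, where the background was 0.42% of all regions, 1 for Control over CDK8KD (0.39%) and 1 for CDK8KD over CDK19KD (0.772%). No region was held by a knockdown group and absent in Control (background 0.599% for CDK19KD and 0.605% for CDK8KD), and none by CDK19KD and absent in CDK8KD (0.822%). All 9 libraries held 20 of the 45 regions (44.4%), and 28.3% of all regions.

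MET had narrower start peaks in both knockdown groups than in any Control library. The widths were 28.6, 30.3 and 32.3 kb in Control, 27.3, 13.0 and 27.5 kb in CDK19KD, and 13.8, 28.5 and 8.16 kb in CDK8KD. All Control libraries had the undivided domain, as did CDK19KD replicates 1 and 3 and CDK8KD replicate 2, and the low values are those of the 3 split domains. The means were 30.4 ± 1.87, 22.6 ± 8.30 and 16.8 ± 10.5 kb (SD, n = 3 each). CDK19KD was 7.80 kb and CDK8KD 13.6 kb below Control (exact permutation p = 0.1 for each, the smallest possible). Without CDK19KD replicate 2, the split one, CDK19KD was 3.01 kb below Control (exact permutation p = 0.2). Over 39700 segments that all 9 libraries covered, the peak at the midpoint was narrower in every CDK19KD than in every Control library in 8.24%, and narrower in every CDK8KD library in 3.85%. Both comparisons share the Control libraries.

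The body share of MET overlapped between groups. Peaks covered 48.6%, 59.5% and 64.5% of it in Control, 47.7%, 53.3% and 46.0% in CDK19KD, and 43.3%, 52.8% and 50.4% in CDK8KD. Control replicate 1 overlapped with both knockdown groups, and the other Control libraries lay above them. The means were 57.6% ± 8.15, 49.0% ± 3.78 and 48.9% ± 4.95 (SD, n = 3 each; exact permutation p = 0.207), and 74.1% of the variance lay between groups once Control replicate 1 was left out (exact permutation p = 0.0464). With only peaks of −log10 q of at least 5, the share was 44.0%, 45.4% and 46.7% in Control, 40.2%, 40.9% and 40.1% in CDK19KD, and 39.1%, 42.3% and 37.7% in CDK8KD. Every Control library was then above every knockdown library (78.6% of the variance, exact permutation p = 0.025, unadjusted). Keeping the 20000 strongest peaks of each list gave the same values. Of tiles as long as MET, 126 kb, 1.1% showed this order under the first filter and 1.79% under the second. Filtered tiles were counted only for gene and filter pairs that had passed 0.05, and needed a mean share of only 5%. These shares thus do not measure how often such an order arises among all genes and settings tried.

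Around the MET start the order was another. CDK19KD libraries covered 76.9%, 80.7% and 77.4% of these 10 kb and CDK8KD libraries 82.0%, 82.6% and 81.6%, so CDK19KD lay below in every library, by 3.75 points (exact permutation p = 0.1). In 15.4% of the 10 kb windows tested, CDK19KD lay below CDK8KD in the same way. Control, at 75.5%, 84.2% and 69.0%, spanned both groups. Scaled by the total covered length of each list, CDK19KD was 6.10 points above CDK8KD, and once Control replicate 2 was left out 79.2% of the variance lay between groups (exact permutation p = 0.00357).

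**Figure D4:**
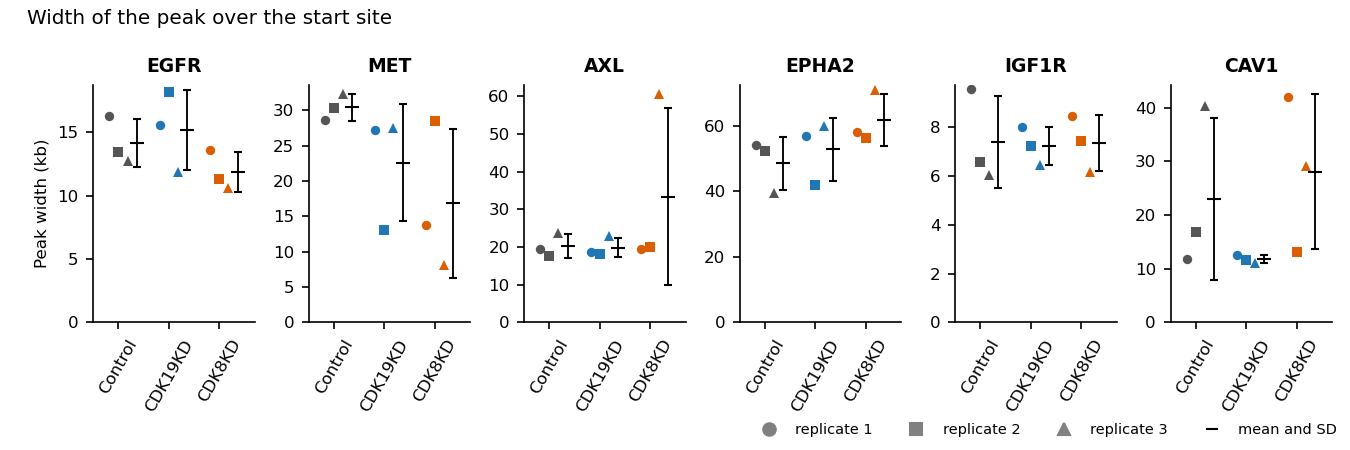
Width in kb of the peak over the start site in the 3 libraries of each group (marker by replicate, bar at the mean with SD; each gene has its own axis from 0). The Control libraries of MET lie between 28.6 and 32.3 kb, above all knockdown libraries, and single wide peaks set the spread in AXL (CDK8KD replicate 3) and CAV1.

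EPHA2 had the wider start peaks in CDK8KD: 58.2, 56.4 and 71.0 kb, against 54.0, 52.4 and 39.3 kb in Control and 56.9, 41.9 and 59.8 kb in CDK19KD. All 3 CDK8KD peaks were wider than the widest Control peak, and CDK19KD overlapped with both. CDK8KD exceeded Control by 13.3 kb on average (exact permutation p = 0.1), but by 8.65 kb without Control replicate 3 and 8.71 kb without CDK8KD replicate 3 (exact permutation p = 0.3 for each), and 16.7% of the shared segments of the genome showed CDK8KD wider in the same way. Body shares of EPHA2 averaged 75.2% ± 22.1 for Control, 71.1% ± 14.8 for CDK19KD and 87.6% ± 14.4 for CDK8KD (SD, n = 3 each; exact permutation p = 0.45).

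CAV1 start peaks were 12.5, 11.6 and 11.1 kb wide in CDK19KD, 42.1, 13.2 and 29.2 kb in CDK8KD, and 11.9, 16.8 and 40.3 kb in Control. CDK19KD lay below every CDK8KD library, by 16.4 kb (exact permutation p = 0.1), while 20.3% of shared segments showed that order. Without CDK8KD replicate 1 the difference was 9.41 kb in the same direction. Control overlapped with both. The wide values came from joining with neighbouring peaks: upstream in CDK8KD replicate 1, and downstream over the gene in Control replicate 3 and CDK8KD replicate 3. Body shares averaged 78.1% ± 21.3 for Control, 61.6% ± 7.20 for CDK19KD and 68.3% ± 20.4 for CDK8KD (SD, n = 3 each; exact permutation p = 0.543).

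AXL differed mainly by replicate number. Its body was covered by 66.9%, 75.4% and 97.6% in Control replicates 1, 2 and 3, by 60.3%, 58.8% and 89.1% in CDK19KD, and by 72.9%, 89.4% and 100% in CDK8KD. Replicate 3 was the highest in each group, and the groups overlapped (exact permutation p = 0.364). Within each replicate number CDK8KD lay above Control and Control above CDK19KD. With labels permuted only within replicate numbers the same split of the variance, 25.3%, was the largest of 36 arrangements (blocked exact permutation p = 0.0278, the smallest possible, unadjusted for 18 tests). In each replicate number the CDK8KD list also covered more in total than the CDK19KD list. The Control list covered the least in replicate 1 (262.9 Mb) and the most in replicate 2 (312.8 Mb). Only in replicate 3 did it lie between them (315.7 Mb). The part of total length was not tested.

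EGFR varied widely within groups. Its body was covered by 57.6%, 77.4% and 89.4% in Control, 54.6%, 64.3% and 64.7% in CDK19KD, and 54.4%, 73.9% and 87.0% in CDK8KD. Replicate 1 was the lowest in each group and the groups overlapped, while within each replicate number Control was the highest (blocked exact permutation p = 0.0556). The means were 74.8% ± 16.0, 61.2% ± 5.72 and 71.8% ± 16.4 (SD, n = 3 each; exact permutation p = 0.439). With the 20000 strongest peaks of each list, Control lay above both knockdown groups in every library, with 44.6%, 50.8% and 62.7% against 32.6% to 40.8% in CDK19KD and 34.6% to 44.2% in CDK8KD (59.9% of the variance, exact permutation p = 0.0357, unadjusted). Under that filter 1.95% of tiles of 192 kb, the length of EGFR, showed the same order.

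At the scale of 10 kb windows no difference at the 6 genes was called. Their bodies and the 5 kb before them made 81 windows, of which 66 had the mean covered share of at least 5% that the test asked for: all 20 of EGFR, 5 of AXL, 4 of EPHA2 and 5 of CAV1, but 12 of 14 in MET and 20 of 33 in IGF1R. In limma with Benjamini-Hochberg adjustment over all 78056 windows, 0 of the 66 passed an adjusted p of 0.05 in any comparison. For CDK19KD against Control 0.0551% of all windows were called higher and 0.0231% lower, for CDK8KD against Control 0.63% and 0.0858%, and for CDK19KD against CDK8KD 0.225% and 0.78%. The lowest adjusted p at the 6 genes were 0.156, 0.172 and 0.150 in these comparisons.

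At an unadjusted p under 0.05, CDK19KD was higher than Control in 0 and lower in 5 of the 66 windows, where 4.38% and 5.54% of all windows were. CDK8KD was higher than Control in 1 and lower in 4 (10.5% and 4.14% of all), and CDK19KD was higher than CDK8KD in 0 and lower in 5 (3.48% and 11.1%). With the replicate block, CDK19KD was higher than Control in 0 and lower in 10 (4723 and 7053 of all 78056 windows). CDK8KD was then higher than Control in 2 and lower in 6 (10564 and 5122), and CDK19KD higher than CDK8KD in 1 and lower in 9 (3857 and 11964). The median difference over the 66 windows was −5.16 percentage points for CDK19KD against Control, where that of all windows was −2.26. For CDK8KD against Control it was −0.818 at the 6 genes and 0.88 over all windows. For CDK19KD against CDK8KD it was −3.16 and −3.22. By non-overlap of the single libraries, with no test, CDK19KD lay above every Control library in 0 of the 66 windows and below in 5 (6.52% and 7.24% of all windows), CDK8KD above every Control library in 1 and below in 5 (12.8% and 4.5%), and CDK19KD above every CDK8KD library in 2 and below in 6 (5.38% and 15.4%). Neighbouring windows of a gene share peaks, so these counts are not of independent sites.

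In windows of 5 kb, 1 of the 124 tested at the 6 genes was called, a window of EGFR that was lower in CDK19KD (0.056% of all such windows were called lower against Control and 0.595% against CDK8KD). It lay 28 to 33 kb after the start, between the start domain and the longest shared segment, and overlapped 2 shorter segments that all 9 libraries covered, at 27.9 to 29.7 kb and at 32.2 to 35.7 kb. Peaks covered 76.8%, 75.1% and 67.2% of it in CDK19KD and 100% in every Control and CDK8KD library. The difference was −27.0 percentage points from either group, with an adjusted p in limma of 0.0118 against Control and 0.00743 against CDK8KD. All 6 libraries of the other groups sat at the ceiling of 100% and so added no spread to the fit. In the 10 kb window around it, 23 to 33 kb after the start, the shares were 77.3%, 80.5% and 89.7% in Control, 60.8%, 74.0% and 71.8% in CDK19KD and 63.9%, 69.1% and 76.8% in CDK8KD. There CDK19KD was 13.7 points below Control (limma adjusted p = 0.474).

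Among the other EGFR windows, that 163 to 173 kb after the start came closest in the model with the replicate number. It was covered by 49.7%, 51.1% and 72.8% in CDK19KD, 69.2%, 88.0% and 100% in CDK8KD, and 67.6%, 88.5% and 100% in Control. CDK19KD lay below CDK8KD in each replicate number, with an adjusted p in limma of 0.0538 with the block and 0.301 without it.

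Most genes of the wider pathway had a peak within 5 kb of their start, 24 of 31 in all 9 libraries and 3 in none. The share over all gene starts was not computed, so these counts and those by list do not set the pathway apart from other genes. A peak within 5 kb need not cover the start itself. Among the 24, it did so in no library at PDGFRA and IGF1, in 7 at PDGFRB and EFNA1, and in 8 at EGF and EPHB2. Of 15 other receptor tyrosine kinase genes, 10 had a peak within 5 kb of the start in all 9 libraries, 3 in some and 2 in none. RET, the receptor of GDNF ligands, and ALK had none. KIT, the stem cell factor receptor, had one in 8 libraries, KDR, a VEGF receptor, in 6, and ERBB4 in 1. The median over these 15 genes of the median share of the 10 kb around the start was 29.1%. Among the 6 genes the lowest mean over the libraries, another measure, was 73.9%, that of AXL. The 6 genes and the lists were chosen with earlier results of these data known, so this contrast describes them and tests nothing. ERBB2 and ERBB3, which pair with EGFR, had medians of 32.0% and 32.9%, and MERTK and TYRO3, the relatives of AXL, 40.0% and 30.1%. INSR, the insulin receptor and closest relative of IGF1R, had 29.1%. MST1R, the relative of MET, was the highest of the 15 with 91.9%.

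Of 10 ligand genes, 8 had a peak within 5 kb of the start in all 9 libraries, and the median start share of the 10 was 67.8%. The EGFR ligands HBEGF, TGFA, AREG and EREG had median start shares of 96.6%, 89.1%, 85.3% and 73.3%, GAS6, the ligand of AXL, 83.1%, and EFNA1, a ligand of EPHA2, 62.3%. HGF, the ligand of MET, had no peak in any library, and IGF2, a ligand of IGF1R, had one in 1. The mark thus covered the start of the receptor MET and not that of its ligand. All 6 adaptor, inhibitor and caveolar partner genes had a peak in all 9 libraries. ERRFI1, an inhibitor of EGFR, was covered by 100% in every library, and CAV2 and CAVIN1, partners of CAV1, had medians of 100%. LRIG1, another inhibitor of EGFR, had 20.8%.

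**Figure D5:**
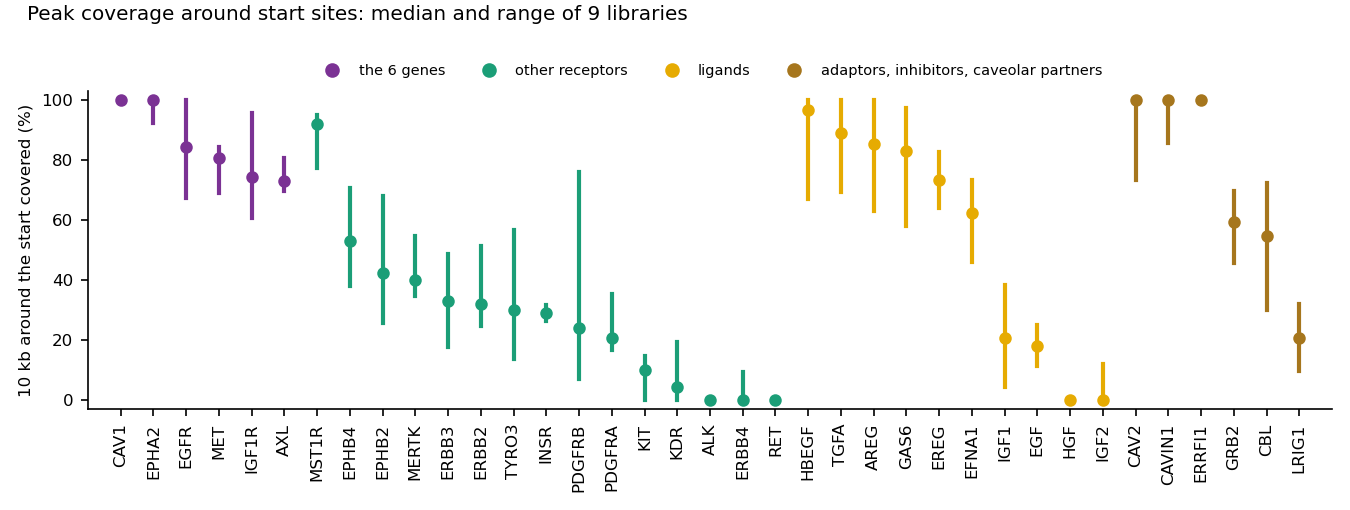
Share of the 10 kb around the start site covered by peaks, in percent, for the 6 genes and the 31 other pathway genes (dot at the median of 9 libraries, line from the lowest to the highest). Of the 15 other receptors only MST1R has a median, 91.9%, in the range of the medians of the 6 genes. The lines of EPHB4, EPHB2 and PDGFRB reach up to 70.7%, 68.0% and 76.1%, above the lowest library of IGF1R at 60.5%. RET, ALK and HGF lie at 0.

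Of the windows that hold the starts of the 31 other genes, 26 were tested. PDGFRB, a receptor of platelet-derived growth factor, was the only one called. Its start window was covered by 15.8%, 10.7% and 16.6% in Control, 23.9%, 7.05% and 29.5% in CDK19KD, and 57.8%, 76.1% and 62.6% in CDK8KD. All CDK8KD libraries lay above all others. The difference was 51.2 points to Control (SE 7.13, limma adjusted p = 0.0359) and CDK19KD was 45.4 points below CDK8KD (limma adjusted p = 0.0399), while 0.63% and 0.78% of all windows were called in these directions. The peaks there ranked in percentile 32.0 to 74.3 of their lists. Adding the replicate number to the limma model raised the adjusted p to 0.0598 and 0.0641, and with peaks of −log10 q of at least 5 the differences were 9.0 and −4.65 points (adjusted p 0.877 and 0.984). Neither call held when single libraries were left out in turn, apart from that to Control without Control replicate 1.

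By the percentile of the peak over the start, or else the nearest within 5 kb, the listed gene most like each of the 6 was found. It was sought over the 9 libraries among the 24 genes with such a peak in all of them. MST1R was the most like EGFR and IGF1R, with a mean absolute difference of 2.98 and 2.34 percentile points. EREG was the most like MET (2.27) and CAV1 (3.30), ERRFI1 the most like AXL (3.47), and EFNA1 the most like EPHA2 (3.23).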

How the data were processed

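Native ChIP-seq gave H3K27ac profiles of MDA-MB-231, with 3 libraries for each of Control, CDK19KD and CDK8KD, grouped and numbered by the sample titles. The authors deposited 1 broad-peak list per library on hg19, and MACS2 and deepTools are named without a role, per the submitters' processing notes. Aligner, caller settings, control library and depth are not given in the sources used here. The deposited fold enrichment is a linear ratio of the authors' caller. The deposited −log10 p and −log10 q are the caller's too, and the authors' score, 10 times the −log10 q without its decimals, was left aside. Such values ranked or filtered peaks within their own list only. A longer list can hold weak peaks that another misses.

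Only peaks of chromosomes 1 to 22 and X entered. Start sites came with the choice of genes, to the nearest kb. Gene ends and the starts of the other genes were entered by hand in hg19 to the nearest kb, because no annotation of that build was used here, and exons and introns were not assigned. The 6 genes and the gene lists were chosen with earlier results of these data known.

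Computed were the covered share of the 10 kb around each start, of each body and of 10 kb windows, the start peak's width, and merged regions (held by 1 bp of overlap). Single values were tested by exact two-sided permutation of libraries. Windows covered by at least 5% on average were tested with limma 3.58.1 in R 4.3.3 (lmFit, eBayes with a trend, all 9 libraries, Benjamini-Hochberg), on code tested on simulated data. Named were all 6 genes and listed genes with a peak within 5 kb of the start in no or some libraries. Also named were listed genes with a called start window, the most alike listed gene, and called, exclusive or widest shared regions. Other listed genes and the window of IGF1R, EGFR or MET with a low p were chosen after their values were seen.

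After group means were removed, same-numbered libraries correlated at 0.138 to 0.611 over windows in all 9 pairs, above 0.1. The replicate numbers from the titles were therefore taken to pair the samples. The main permutation and limma tests did not use this pairing. It entered only as an alternative, the replicate block or the blocked permutation, and p-values from it are named as such. The alternatives were a minimum −log10 q of 5, the 20000 strongest peaks, peaks of at least 500 bp, peaks within 1000 bp joined, 5 kb windows, no minimum share, start windows of 2 and 10 kb on either side, 50% of a region covered, the replicate block, scaling by total covered length and leaving out each library.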

Additional observations from a re-analysis of the deposited data

How the results depend on the processing

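Of 553 values under alternatives, for 39 results, 499 kept their direction and their side of the threshold or stayed within 1.5 times of a count. Some of these could not change. For a pair of groups the replicate block gives the same mean difference as the main setting. Joining peaks within 1000 bp left every count of windows as it was. The scaling of start and body shares by total covered length was chosen after seeing the data. Values are the share of variance between groups with its exact permutation p unless stated otherwise, and the cause of each change was not tested. The body of EGFR passed 0.05 with the 20000 strongest peaks (59.9%, exact permutation p = 0.0357), and that of MET with the same peaks and with −log10 q of at least 5 (78.6%, exact permutation p = 0.025 in both). Leaving out 1 library moved the body of MET between 22.4% and 74.1%, that of IGF1R between 49.1% and 75.1%, and the MET start share between 23.2% and 79.2%; the highest values came without Control replicate 1, replicate 1 and replicate 2. The sign turned in 2 results: the IGF1R body in CDK19KD was 1.10 percentage points above Control with −log10 q of at least 5, and the MET start share in CDK19KD was 6.10 points above CDK8KD when scaled.

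With the replicate block, the AXL body (25.3%) reached the smallest exact permutation p, 0.0278, and the calls at the start of PDGFRB were lost (limma adjusted p 0.0598 and 0.0641); no other call changed with the pairing. The PDGFRB calls were also lost without any 1 library, except the call against Control without Control replicate 1. In 5 kb windows 1 window of EGFR was called lower in CDK19KD against Control and 1 against CDK8KD, and otherwise no window of the 6 genes was called.

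The 3 counts of exclusive regions, 1 each, fell to 0 with 50% cover, with −log10 q of at least 5 and with the 20000 strongest peaks. With a library left out, regions held by Control numbered 1 to 3 against CDK19KD and 1 to 4 against CDK8KD, those held by CDK8KD 0 to 1 against Control and 1 to 2 against CDK19KD. Start width differences moved between −10.3 and −3.01 kb in MET for CDK19KD against Control, between 8.65 and 16.0 kb in EPHA2 for CDK8KD against Control and between −23.9 and −9.41 kb in CAV1 for CDK19KD against CDK8KD. The EPHA2 start width gave no value at −log10 q of at least 5, where a library had no start peak. The lists hold no read counts, so what depth limits is unknown.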
